A study of Arabidopsis thaliana with 16 samples.

Results

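Aquaporins are membrane channels that let water, and in some members small solutes, cross a lipid bilayer. In Arabidopsis the plasma membrane intrinsic proteins (PIP1 and PIP2) carry water across the cell surface, and the tonoplast intrinsic proteins (TIP) carry it across the vacuole membrane. The NOD26-like intrinsic proteins (NIP) mostly carry metalloids and small uncharged solutes such as boric acid, and the small basic intrinsic proteins (SIP) lie in the endoplasmic reticulum. In leaves, transcript levels of PIPs and TIPs are known to respond to water supply.

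The family was taken as the 35 Arabidopsis loci annotated as aquaporins. Membership follows the annotation and not a measured value, but the family was picked for description with earlier results of these data known. All 35 loci were found among the 27827 genes on the arrays. It comprised 5 PIP1, 8 PIP2, 10 TIP, 9 NIP and 3 SIP genes. Gene names are written with a hyphen, so that PIP1-3 is the gene that the annotation also writes as PIP1;3. The gene AT1G17810 is written as BETA-TIP.

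Leaf RNA of Col-0 plants grown on soil under 8 h of light per day was hybridized to 16 arrays, 4 in each of 4 groups. The amiNaa10 and amiNaa15 plants expressed an artificial microRNA, driven by the constitutive CaMV35S promoter, against NAA10 or NAA15, and both were well watered. NAA10 is the catalytic and NAA15 the auxiliary subunit of NatA, the cytosolic N-terminal acetyltransferase that acts on nascent proteins at the ribosome. The drought group was the wild type without water for 10 days, and the control group was the well-watered wild type. The authors name a single transgenic line for each knock-down, so that the line and the knock-down cannot be told apart. The labels give all plants as 6 weeks old, whereas the methods give 52 days on soil for well-watered plants and 42 days followed by 10 days of drought. The labels call the 4 arrays of a group biological replicates.

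The knocked-down transcripts did not match every label. NAA10 had log2 signals of 5.16, 5.28, 4.92 and 5.01 on the amiNaa10 arrays, 5.16, 5.06, 6.89 and 6.86 on the arrays labelled amiNaa15, and 6.58 to 6.88 on the control arrays. NAA15 had 9.46 to 9.87 on the amiNaa10 arrays, 9.68, 9.54, 7.97 and 7.80 on the arrays labelled amiNaa15, and 9.0 to 9.20 on the control arrays. Replicates 1 and 2 labelled amiNaa15 thus had low NAA10 and no low NAA15, as the amiNaa10 arrays did. The arrays were kept under their labels and are called arrays labelled amiNaa15, and counts, subfamily means and called members of that label are also given without replicates 1 and 2.

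The tissue was checked against marker genes. The log2 of the summed signal of 6 leaf mesophyll markers was 14.5 to 14.6 on the amiNaa10 arrays and 14.4 to 14.5 on the arrays labelled amiNaa15, and the 6 seed and 6 pollen markers had low gene means of 2.70 to 4.76 and 1.65 to 3.37. RBCS1A, the mesophyll marker with the highest mean, had the same value of 13.39 on every well-watered array. Its part of the sum could therefore not differ between the knock-downs and the control. Drought moved some of the marker lists. Of the mesophyll markers, 3 were lower in drought than in control leaves (RBCS1B, CAB3 and CA1), and the summed signal was 13.9 to 14.3 on the drought arrays and 14.5 to 14.7 on the control arrays. Of 6 root markers, PYK10 was lower in drought, and the summed signal was 6.59 to 7.31 on the drought arrays and 7.49 to 8.92 on the control arrays. No marker of seed, pollen, guard cells (4 genes) or phloem and vascular tissue (4 genes) was called in drought. No cell type marker was called in either knock-down against the control, but some summed signals were lower. The guard cell sum was 8.28 to 8.78 on the amiNaa10 arrays, 8.16 to 9.01 on the arrays labelled amiNaa15 and 8.89 to 9.15 on the control arrays. The root sum was 7.01 to 7.73 on the amiNaa10 arrays and 7.33 to 8.04 on the arrays labelled amiNaa15, which overlapped the control. PYK10 had a mean of 7.20 over all arrays and the other root markers 1.57 to 3.70, so the root sum mostly follows PYK10. The part of these shifts in the aquaporin changes was not tested, and in whole leaves fewer cells of a type cannot be told apart from less RNA per cell.

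More aquaporins were called in drought than in either knock-down, and so were more of all genes. A gene was called when its Benjamini-Hochberg adjusted p over all genes was below 0.05 and its change exceeded 1.5-fold. In drought against the control, 6 of 35 members were lower and 2 were higher, where 7.15% of all genes were called lower and 6.27% higher. In amiNaa10 against the control, 2 of 35 members were lower and none was higher, where 2.92% of all genes were called lower and 2.45% higher. In the arrays labelled amiNaa15 against the control, 2 of 35 were again lower and none was higher, against 2.58% and 2.09% of all genes. Without replicates 1 and 2 of that label, limma called 0 members and 108 genes (0.388%) in that comparison, and 3 members and 5.06% of all genes passed at an unadjusted p below 0.05. With the same fold change and a p below 0.05 before adjustment, 8 members passed in drought (14.8% of all genes), 4 in amiNaa10 (8.62%) and 3 in the arrays labelled amiNaa15 (7.82%). In all, 10 members were called in at least 1 of these 3 comparisons and 25 in none.

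**Figure D1:**
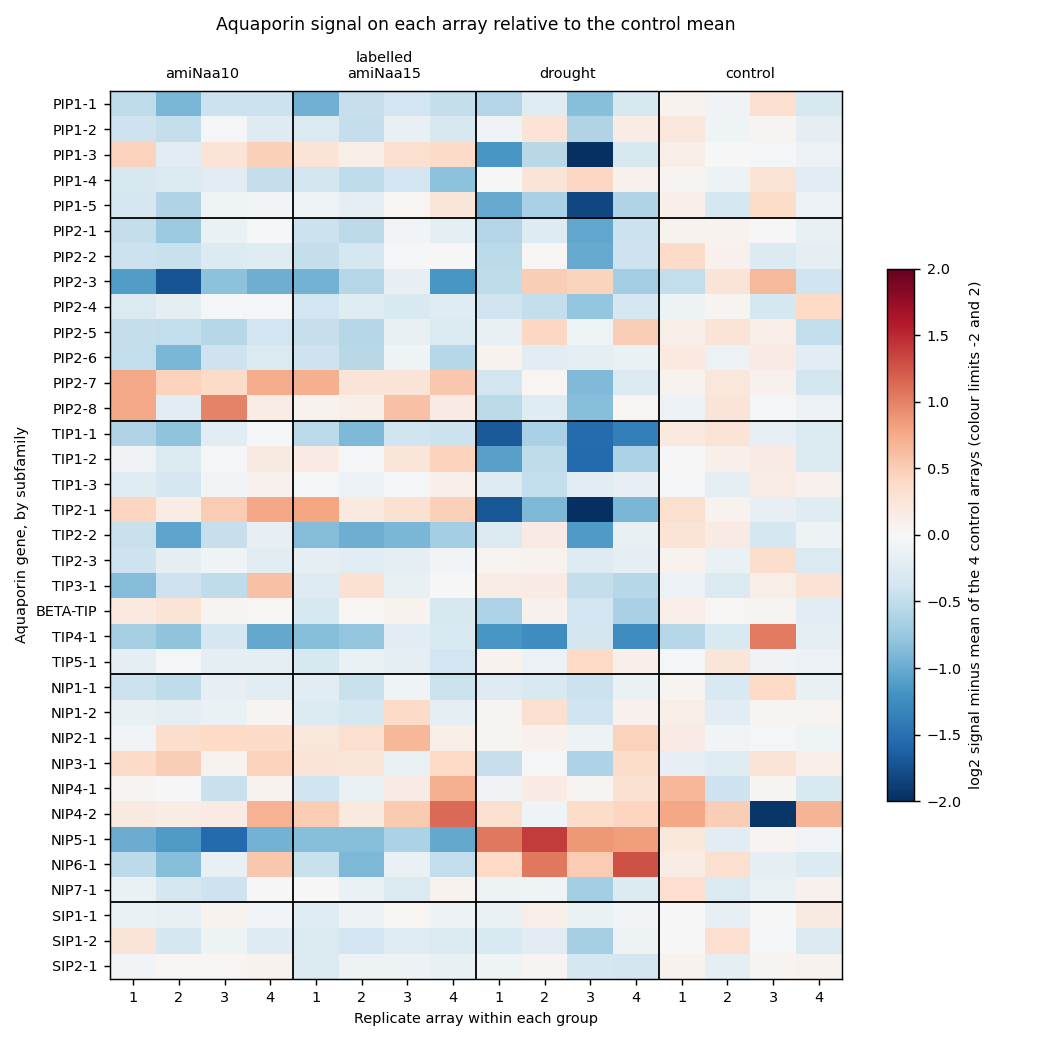
Log2 signal of each of the 35 aquaporins (rows, grouped by subfamily) on each of the 16 arrays (columns, 4 replicates per group), minus the mean of the 4 control arrays. Blue is lower and red higher than that mean, with colours limited at -2 and 2 log2 units. The drought columns hold the deepest blue in PIP1-3, PIP1-5, TIP1-1, TIP1-2 and TIP2-1, and NIP5-1 is blue in the knock-down columns and red in the drought columns.

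The direction of change was mostly downward also among members that were not called. In each of the 3 comparisons 26 of the 35 members had a log2 change below 0, where the share of all genes below 0 was 46.7% in drought, 47.2% in amiNaa10 and 48.3% in the arrays labelled amiNaa15. These comparisons share the 4 control arrays, so the counts are not independent of each other. The median log2 change over the members was -0.28 in drought, -0.22 in amiNaa10 and -0.16 in the arrays labelled amiNaa15, whereas the median of all genes was 0.02, 0.02 and 0.01. Without replicates 1 and 2 labelled amiNaa15, 23 of 35 members and 48% of all genes were below 0 in that comparison, and the median over the members was -0.12. Of the 4 group means of a member, the control mean was the highest in 18 of 35 members and the drought mean the lowest in 17. These orders were not counted over all genes, so the counts cannot be read as particular to the family.

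The calls in drought fell on the PIP1, TIP and NIP genes. Of the 5 PIP1 genes 2 were lower, of the 8 PIP2 genes none was called, of the 10 TIP genes 4 were lower, of the 9 NIP genes 2 were higher, and of the 3 SIP genes none was called. The median log2 change in drought was -0.50 for PIP1, -0.39 for PIP2, -0.37 for TIP, 0.11 for NIP and -0.19 for SIP. The TIP median includes members of low signal, and was -1.0 without those of mean signal below 4, so these medians do not rank the subfamilies. The PIP2 median was -0.24 without drought replicate 3, and the NIP median was between -0.03, without control replicate 2, and 0.18 with 1 array left out, so that its sign was not settled. The TIP mean over its 10 members lay 0.34 to 0.78 log2 units below the control mean on the 4 drought arrays, and within -0.13 to 0.11 of it on the control arrays. The TIP mean of the drought arrays did not overlap the control, and neither, narrowly, did that of SIP, at -0.38 to -0.02 on the drought arrays and -0.01 to 0.02 on the control arrays. For PIP1, PIP2 and NIP the drought and control arrays overlapped.

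In the knock-downs, all 5 subfamily means lay below the control mean. The mean deviation of the amiNaa10 arrays was -0.24 ± 0.18 log2 units for PIP1, -0.25 ± 0.20 for PIP2, -0.19 ± 0.16 for TIP, -0.14 ± 0.17 for NIP and -0.05 ± 0.08 for SIP (SD over 4 arrays). That of the arrays labelled amiNaa15 was -0.23 ± 0.09, -0.20 ± 0.14, -0.19 ± 0.07, -0.07 ± 0.13 and -0.19 ± 0.07 in the same order. Without replicates 1 and 2 of that label the means were -0.15, -0.11, -0.13, 0.04 and -0.14, so that NIP was then above the control mean. That of the drought arrays was -0.49 ± 0.39, -0.29 ± 0.22, -0.59 ± 0.18, 0.18 ± 0.19 and -0.19 ± 0.15. The SD over the control arrays was 0.19, 0.14, 0.10, 0.19 and 0.01 in the same order. In amiNaa10 every subfamily overlapped the control arrays. In the arrays labelled amiNaa15 all but SIP did, where SIP had -0.27 to -0.10 and the control -0.01 to 0.02. Genes of a subfamily are not replicates of a condition, so the subfamily means were not tested.

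**Figure D2:**
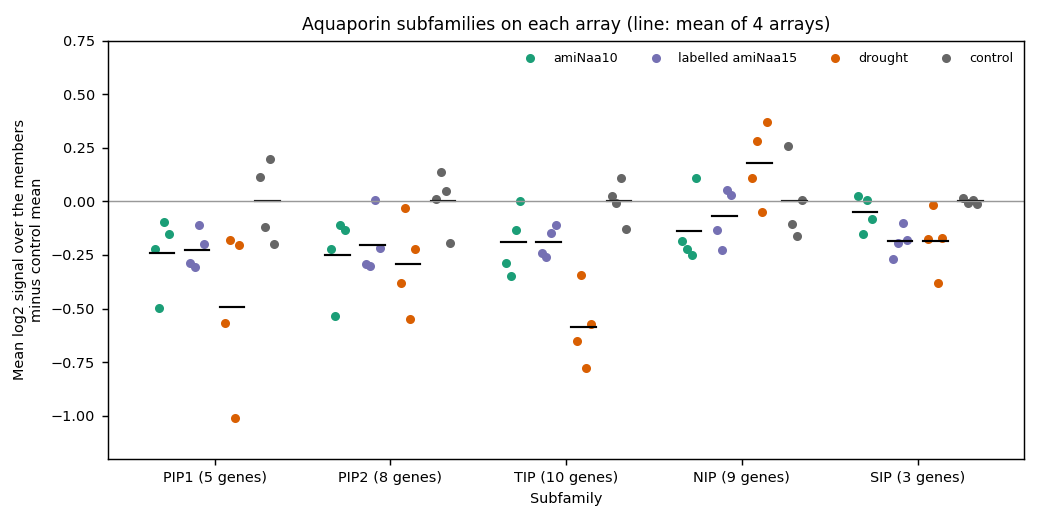
Mean log2 signal over the members of each aquaporin subfamily minus the control mean (vertical axis, log2 units), with 1 point per array and a line at the mean of 4 arrays. The 4 drought points of TIP lie between -0.78 and -0.34 and those of the control between -0.13 and 0.11, whereas the drought points of NIP lie between -0.05 and 0.37.

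Among the PIP1 genes, whose products reach the plasma membrane together with PIP2 partners, PIP1-3 and PIP1-5 were lower in drought than in the control. PIP1-3 (AT1G01620) had log2 signals of 8.52, 9.14, 7.50 and 9.37 on the drought arrays and 9.81, 9.70, 9.67 and 9.58 on the control arrays. The amiNaa10 arrays had 10.15, 9.48, 9.97 and 10.17 and the arrays labelled amiNaa15 had 9.96, 9.81, 10.01 and 10.07. All 4 drought arrays were below the other 12 arrays, and replicate 3 was far below the rest. The log2 change in drought was -1.06 (SE 0.29, 2.08-fold lower, adjusted p = 0.0136). It was -0.68 without drought replicate 3 (adjusted p = 0.0182), and with only the drought and control arrays in the fit the adjusted p was 0.0575. In amiNaa10 and in the arrays labelled amiNaa15 the change of PIP1-3 was 0.25 and 0.27 and was not called.

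PIP1-5 (AT4G23400) had 5.46, 5.81, 4.64 and 5.86 on the drought arrays and 6.57, 6.11, 6.84 and 6.34 on the control arrays. Again every drought array was below every well-watered array, since the lowest amiNaa10 array had 5.87 and the lowest array labelled amiNaa15 had 6.26. The log2 change was -1.02 (SE 0.23, 2.03-fold lower, adjusted p = 0.00463), and -0.75 without drought replicate 3 (adjusted p = 0.00872). PIP1-5 changed by -0.27 in amiNaa10 and by -0.0022 in the arrays labelled amiNaa15 and was not called there.

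The other PIP1 genes moved by less than 1.5-fold. PIP1-1 (AT3G61430) had 6.40, 6.75, 6.14 and 6.67 on the drought arrays and 7.06, 6.92, 7.31 and 6.67 on the control arrays, a change of -0.50 that met the adjusted p (0.0494) but not the fold change. On the amiNaa10 arrays it had 6.49, 6.07, 6.57 and 6.55 and on the arrays labelled amiNaa15 6.04, 6.52, 6.61 and 6.52, all 8 below the control arrays. Neither change passed (-0.57 in both, adjusted p = 0.0570 and 0.0608). PIP1-4 (AT4G00430) had 4.87, 4.74, 4.85 and 4.42 on the arrays labelled amiNaa15 and 5.30, 5.14, 5.51 and 5.01 on the control arrays, without overlap. Its change of -0.52 met the adjusted p (0.0284) but not the fold change, and without replicates 1 and 2 of that label it was -0.60 (adjusted p = 0.143). Its drought arrays, at 5.23 to 5.65, did not separate from the control. PIP1-2 (AT2G45960) ranged from 6.86 to 7.74 over all arrays and was not called in any of these comparisons.

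None of the 8 PIP2 genes, which include strong water channels of the plasma membrane, was called in drought. PIP2-1 (AT3G53420), which also acts in guard cells, had 6.42, 6.74, 5.97 and 6.58 on the drought arrays and 7.07, 7.08, 7.01 and 6.86 on the control arrays. The groups did not overlap, and the change of -0.58 (1.49-fold lower, adjusted p = 0.0248) lay just under the fold change required. PIP2-4 (AT5G60660) had 4.70, 4.62, 4.32 and 4.76 on the drought arrays and 4.99, 5.15, 4.75 and 5.50 on the control arrays, a change of -0.49 (adjusted p = 0.0179). The highest drought array was above the lowest control array by a small margin. With PIP1-1, these made 3 members that were lower at the adjusted p and changed by less than 1.5-fold in drought, so that 9 of 35 members were lower there at any fold change, where 10.8% of all genes were.

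PIP2-3 (AT2G37180), which the annotation also lists as RD28, responsive to desiccation, was the only PIP2 gene called against the control, and it was called in amiNaa10. Its log2 signals were 4.97, 4.36, 5.26 and 5.12 on the amiNaa10 arrays and 5.59, 6.34, 6.74 and 5.69 on the control arrays. The arrays did not overlap, but the control arrays spread over more than 1 log2 unit. The change was -1.16 (SE 0.32, 2.24-fold lower, adjusted p = 0.0383), and the call was lost when any of 5 single arrays was left out, amiNaa10 replicates 1, 2 or 4 or control replicates 2 or 3 (highest adjusted p = 0.133). On the arrays labelled amiNaa15 PIP2-3 had 5.15, 5.53, 5.93 and 4.92, a change of -0.71 that was not called, and on the drought arrays it had 5.58, 6.58, 6.54 and 5.39, a change of -0.07. PIP2-3 lies next to PIP2-2 in the annotation with 0 genes between, and the 2 genes are near-identical copies whose probes may not separate them. PIP2-2 (AT2G37170) changed by -0.35 in amiNaa10 and was not called in any comparison.

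PIP2-6 (AT2G39010), which is known from leaf veins, had 9.31, 8.89, 9.39 and 9.51 on the amiNaa10 arrays and 9.99, 9.68, 9.96 and 9.57 on the control arrays. These did not overlap, and the change of -0.53 (SE 0.15, adjusted p = 0.0419) was 1.44-fold and so not called. PIP2-7 (AT4G35100) was 1 of 2 PIP2 genes, with PIP2-8, whose change was above 0 in both knock-downs. It had 7.51, 7.21, 7.14 and 7.50 on the amiNaa10 arrays, 7.46, 7.02, 7.02 and 7.28 on the arrays labelled amiNaa15, and 6.82, 6.98, 6.83 and 6.38 on the control arrays. All 8 knock-down arrays were above the control arrays. The changes of 0.59 (adjusted p = 0.0579) in amiNaa10 and 0.44 (adjusted p = 0.150) in the arrays labelled amiNaa15 missed the adjusted p, and without replicates 1 and 2 of that label the change was 0.40 (adjusted p = 0.497). PIP2-5 (AT3G54820) ranged from 5.60 to 6.67 over all arrays, and PIP2-8 (AT2G16850) averaged 3.44, a low signal, with changes of 0.42 in amiNaa10 and 0.23 in the arrays labelled amiNaa15 that were not called.

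**Figure D3:**
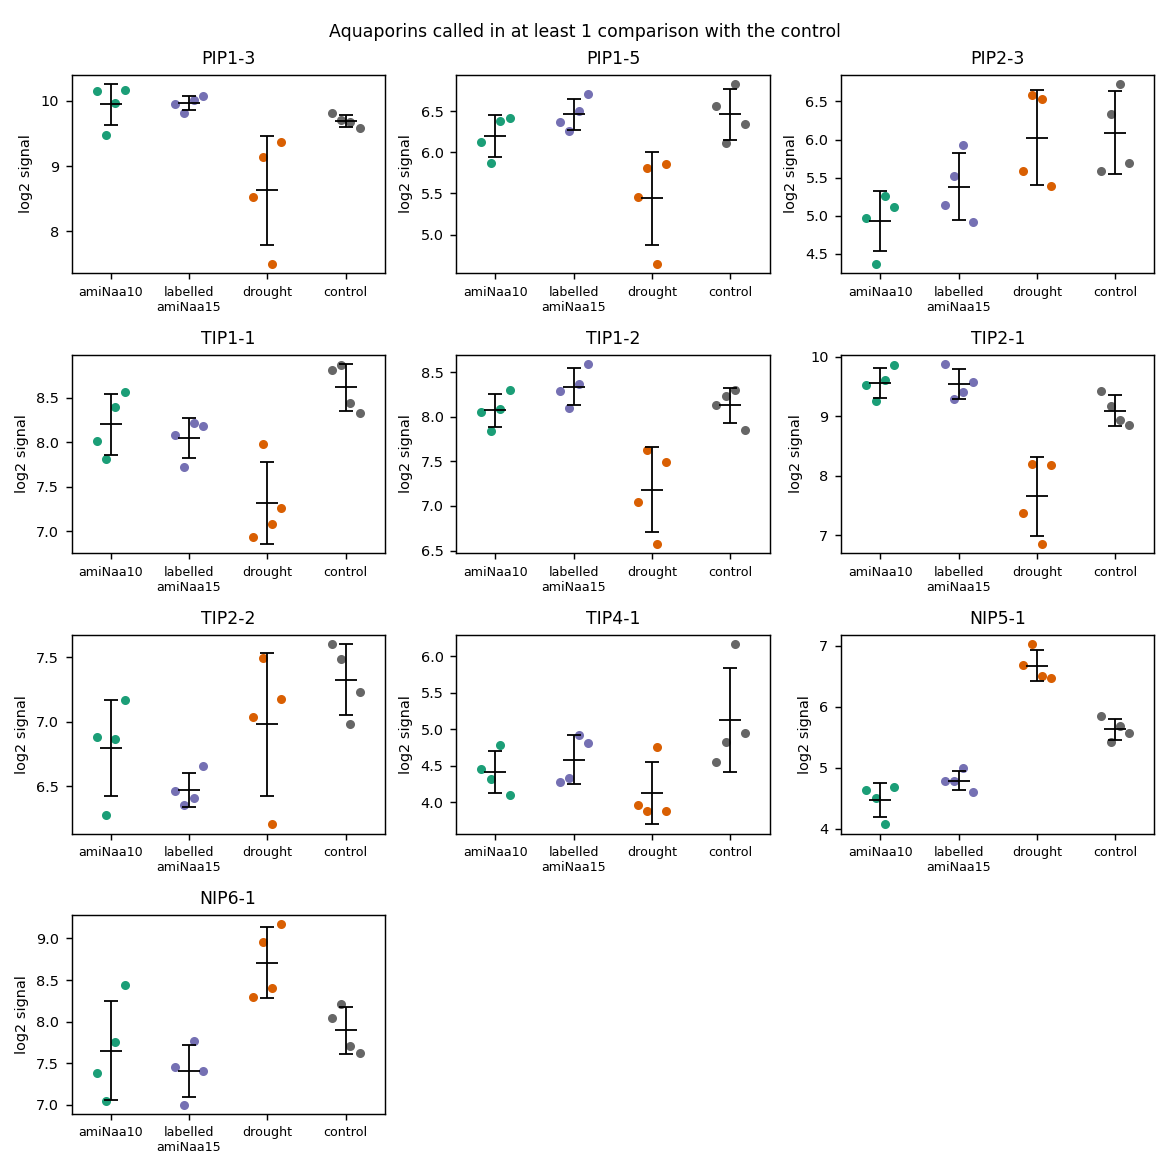
Log2 signal (vertical axes, each with its own scale) of the 10 aquaporins called in at least 1 comparison with the control, 1 point per array, with the mean and SD of 4 arrays per group. The drought points of PIP1-3, PIP1-5, TIP1-2 and TIP2-1 all lie below the other 12 arrays, and in NIP5-1 the order is knock-downs, control, drought with no overlap.

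The 2 largest falls of the family in drought were in TIP genes. TIP2-1 (AT3G16240), known as DELTA-TIP and able to carry ammonia besides water, had 7.38, 8.21, 6.84 and 8.19 on the drought arrays and 9.42, 9.17, 8.94 and 8.85 on the control arrays. The amiNaa10 arrays had 9.53, 9.25, 9.61 and 9.87, and the arrays labelled amiNaa15 had 9.89, 9.30, 9.41 and 9.57. All drought arrays were below the other 12. The change in drought was -1.44 (SE 0.26, 2.72-fold lower, adjusted p = 0.000832), and the changes of 0.47 and 0.45 in amiNaa10 and the arrays labelled amiNaa15 were not called.

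TIP1-1 (AT2G36830), known as GAMMA-TIP and a major vacuolar water channel of leaves, had 6.94, 7.98, 7.08 and 7.26 on the drought arrays and 8.82, 8.87, 8.45 and 8.34 on the control arrays. Drought and control did not overlap, but drought replicate 2 was above 2 of the knock-down arrays. The change in drought was -1.30 (SE 0.22, 2.47-fold lower, adjusted p = 0.000572). TIP1-1 had 8.02, 7.82, 8.40 and 8.57 on the amiNaa10 arrays and 8.08, 7.72, 8.22 and 8.19 on the arrays labelled amiNaa15, changes of -0.42 (adjusted p = 0.264) and -0.57 (adjusted p = 0.126). TIP1-2 (AT3G26520), its close relative, had 7.04, 7.62, 6.57 and 7.49 on the drought arrays and 8.13, 8.23, 8.30 and 7.85 on the control arrays. The lowest well-watered array was 7.84, above all 4 drought arrays, and the change was -0.94 (SE 0.19, 1.93-fold lower, adjusted p = 0.00233). All 4 drought arrays were below the other 12 in 4 of 35 members, PIP1-3, PIP1-5, TIP1-2 and TIP2-1, and in 5.13% of all genes.

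The call of TIP4-1 (AT2G25810), a vacuolar channel known to carry urea, was less firm, and its signals on most drought arrays were low. It had 3.96, 3.88, 4.76 and 3.88 on the drought arrays and 4.55, 4.82, 6.17 and 4.95 on the control arrays. Drought replicate 3 lay within the control range, and control replicate 3 was well above the other control arrays. The change of -1.0 (SE 0.30, adjusted p = 0.0220) was -0.66 without control replicate 3 (adjusted p = 0.0565), and the call was also lost without drought replicate 1, 2 or 4 and with only the drought and control arrays in the fit (adjusted p = 0.0663). The exact two-sided permutation p over the 8 arrays was 0.0571 for TIP4-1 and 0.0286, the smallest possible with 4 against 4 arrays, for each of the other members called against the control.

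TIP2-2 (AT4G17340) was the TIP gene called in a knock-down. It had 6.46, 6.35, 6.41 and 6.65 on the arrays labelled amiNaa15 and 7.60, 7.49, 6.98 and 7.23 on the control arrays. The groups did not overlap, and the change was -0.86 (SE 0.24, 1.81-fold lower, adjusted p = 0.0381). Without replicates 1 and 2, whose knock-down went against the label, it was -0.80 (adjusted p = 0.297), and without replicates 3 and 4 it was -0.92 (adjusted p = 0.0759). Leaving out any single array labelled amiNaa15, or control replicate 1, 2 or 4, also ended the call. The amiNaa10 arrays had 6.88, 6.28, 6.87 and 7.17 and the drought arrays 7.04, 7.50, 6.20 and 7.18, changes of -0.53 and -0.35 that were not called. The other TIP genes had mean log2 signals below 4 over all arrays. Among them are TIP3-1 and BETA-TIP, known from seed storage vacuoles, and TIP1-3 and TIP5-1, known from pollen.

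**Figure D4:**
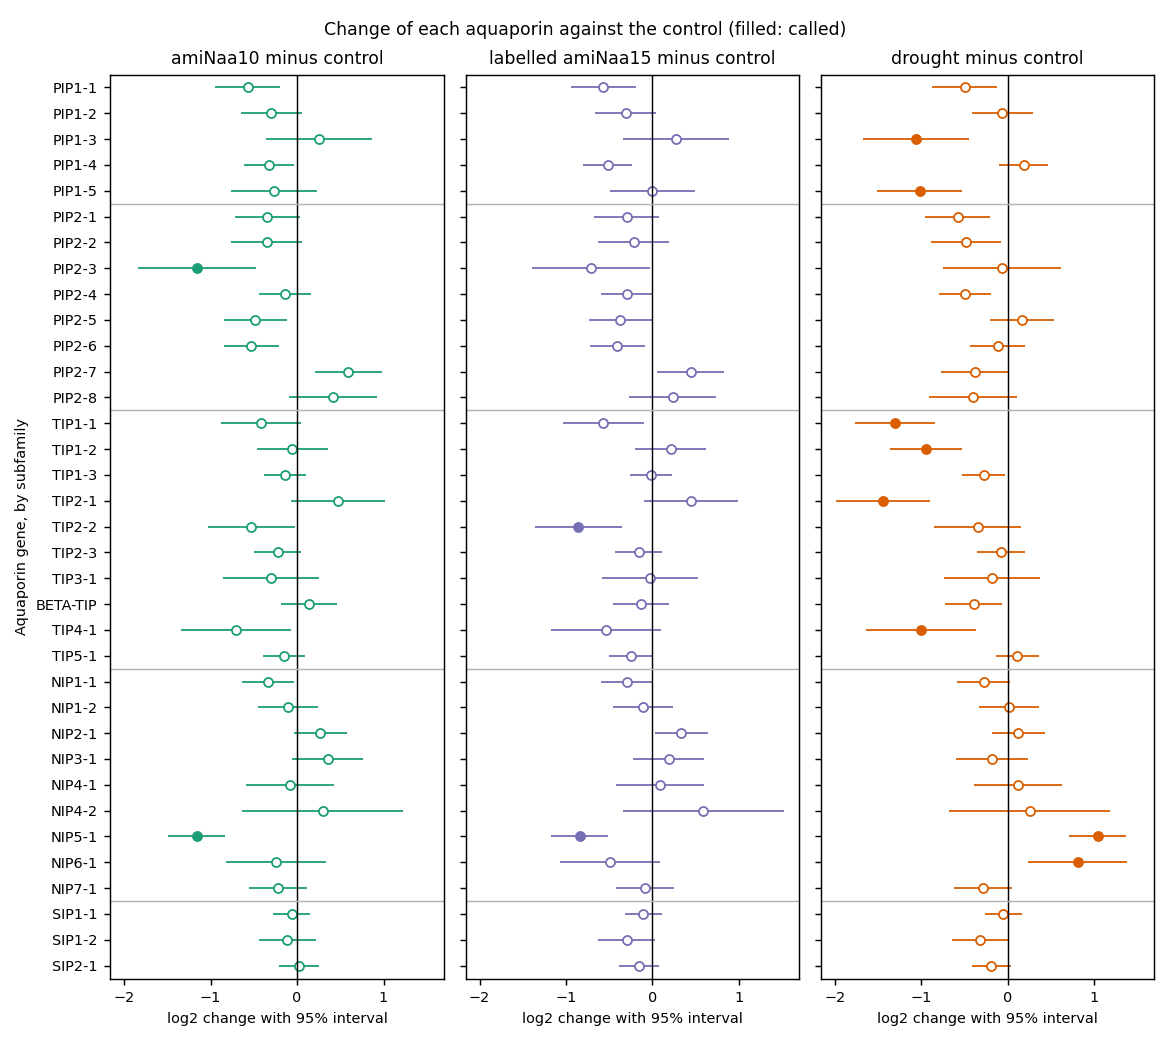
Log2 change of each of the 35 aquaporins against the control in amiNaa10, the arrays labelled amiNaa15 and drought (horizontal axes), with 95% intervals from limma and filled points for called members. In drought, 6 filled points lie left of 0 and 2, NIP5-1 and NIP6-1, lie right of 0. NIP5-1 is filled in all 3 panels, at -1.16, -0.84 and 1.04.

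NIP5-1 (AT4G10380), the boric acid channel known for boron uptake in roots, was the only aquaporin called in all 3 comparisons. It had 4.63, 4.50, 4.07 and 4.68 on the amiNaa10 arrays and 4.78, 4.78, 5.0 and 4.60 on the arrays labelled amiNaa15. It had 6.69, 7.03, 6.50 and 6.47 on the drought arrays and 5.84, 5.42, 5.68 and 5.57 on the control arrays. Every knock-down array was below every control array, and every control array was below every drought array. That order was met by 1 of 35 members and by 124 genes in all, 0.446% of those measured, and the reverse order by no member and by 0.248% of all genes.

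The log2 change of NIP5-1 was -1.16 in amiNaa10 (SE 0.16, 2.23-fold lower, adjusted p = 0.00216) and -0.84 in the arrays labelled amiNaa15 (SE 0.16, 1.79-fold lower, adjusted p = 0.00542). In drought it was 1.04 (SE 0.16, 2.06-fold higher, adjusted p = 0.000238). The NIP5-1 means of 4.47 in amiNaa10 and 4.79 in the arrays labelled amiNaa15 were close to the highest seed marker mean, 4.76. Background signal was not measured. Leaving out any single array kept all 3 calls. Without replicates 1 and 2 labelled amiNaa15 the change was -0.83 with an adjusted p of 0.0955, from only 2 arrays. The 3 changes share the control arrays. In the direct comparison NIP5-1 was lower than in drought by a log2 change of -2.20 in amiNaa10 (adjusted p = 4.14e-07) and of -1.88 in the arrays labelled amiNaa15 (adjusted p = 1.81e-06).

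NIP6-1 (AT1G80760), the boric acid channel known for distributing boron to young leaves, was higher in drought. It had 8.29, 8.96, 8.41 and 9.17 on the drought arrays and 8.05, 8.22, 7.71 and 7.62 on the control arrays. The lowest drought array was only slightly above the highest control array, and the change was 0.81 (SE 0.27, 1.75-fold higher, adjusted p = 0.0382). The call was lost without drought replicate 2 or 4 or control replicate 1, 3 or 4 (highest adjusted p = 0.111). NIP6-1 had 7.38, 7.04, 7.76 and 8.44 on the amiNaa10 arrays and 7.46, 7.0, 7.77 and 7.40 on the arrays labelled amiNaa15, and its changes of -0.24 and -0.49 were not called. NIP7-1 (AT3G06100), a boric acid channel known from anthers, ranged from 3.64 to 4.66 over all arrays and was not called.

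The remaining NIP and SIP genes were not called. NIP1-2 (AT4G18910) ranged from 6.34 to 7.12 over all arrays and NIP3-1 (AT1G31885) from 3.31 to 4.42, whereas NIP1-1 and NIP2-1 had means of 2.54 and 2.78. NIP4-1 and NIP4-2, known from pollen, are adjacent in the annotation, and NIP4-2 had 5.21, 4.92, 2.49 and 5.11 on the control arrays. Its SD was 1.30 there and 0.23 to 0.40 in the other groups. SIP1-1 (AT3G04090) had changes of -0.06 in amiNaa10, -0.10 in the arrays labelled amiNaa15 and -0.05 in drought, and the lowest and highest of its 16 arrays were 9.26 and 9.68. SIP2-1 (AT3G56950) ranged from 6.20 to 6.64, and SIP1-2 had a mean of 2.71.

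Boron exporters were described beside the boric acid channels. Of 7 BOR genes, 2 were higher in drought and none was called in either knock-down. BOR2 had 5.22, 6.26, 6.49 and 5.72 on the drought arrays and 4.67, 5.25, 4.11 and 4.96 on the control arrays, with 1 control array above 1 drought array, and a change of 1.18 (SE 0.25, adjusted p = 0.00295). BOR5 had 7.03, 7.94, 8.33 and 8.30 on the drought arrays and 7.01, 6.13, 7.11 and 6.45 on the control arrays, again with a slight overlap, and a change of 1.22 (SE 0.32, adjusted p = 0.0111). BOR1 was not called. The median of the 7 was 0.06 in drought, -0.02 in amiNaa10 and 0.08 in the arrays labelled amiNaa15.

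**Figure D5:**
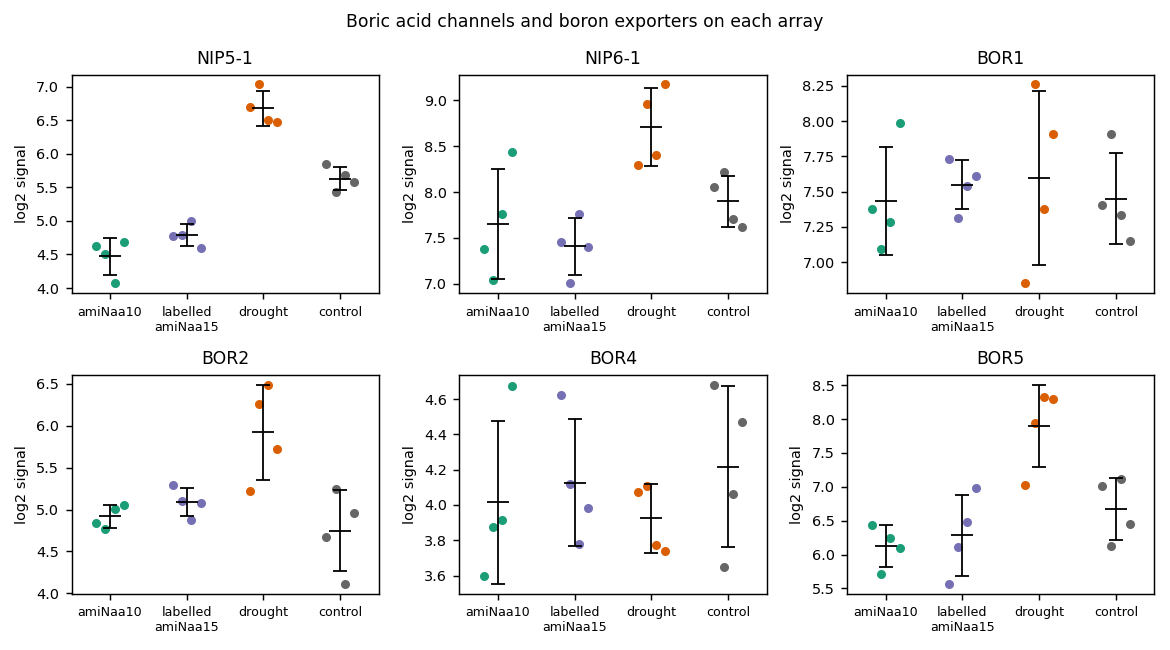
Log2 signal (vertical axes, each with its own scale) of NIP5-1, NIP6-1 and 4 BOR genes on each array, with the mean and SD of 4 arrays per group. NIP5-1, NIP6-1, BOR1, BOR2 and BOR5 have their highest means in drought, where BOR1 was not called. NIP5-1 alone has both knock-downs below the control with no overlap.

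The responses of the knock-downs and of drought were compared directly. In amiNaa10 against drought, 7 of 35 members were higher and 4 lower, where 9.11% of all genes were called higher and 8.17% lower. In the arrays labelled amiNaa15 against drought, 6 were higher and 3 lower, against 7.14% and 6.57% of all genes. The members higher than in drought in both were PIP1-3, PIP1-5, PIP2-7, TIP1-1, TIP1-2 and TIP2-1, and those lower in both were NIP5-1 and NIP6-1, where both comparisons share the drought arrays. Without replicates 1 and 2 labelled amiNaa15, the same 6 members remained higher and the same 3 lower. The call of PIP1-5 in amiNaa10 was lost without drought replicate 3 (a change of 0.48 in place of 0.75), without amiNaa10 replicate 3 or 4, and with only these 2 groups in the fit (highest adjusted p = 0.0661). That of PIP1-5 in the arrays labelled amiNaa15 was lost without replicates 3 and 4 of that label (adjusted p = 0.0549). TIP1-1 in the arrays labelled amiNaa15 lost its call without replicate 1, 3 or 4 of that label or drought replicate 1 or 3 (highest adjusted p = 0.0815), and without replicates 3 and 4 together (adjusted p = 0.177). Of the members higher than in drought, TIP2-1 had the largest difference, 1.91 in amiNaa10 (SE 0.26, 3.77-fold, adjusted p = 5.79e-05) and 1.89 in the arrays labelled amiNaa15 (SE 0.26, 3.70-fold, adjusted p = 9.79e-05). PIP2-7, which was called in neither drought nor the knock-downs against the control, was higher than in drought by 0.97 in amiNaa10 (adjusted p = 0.000903) and by 0.82 in the arrays labelled amiNaa15 (adjusted p = 0.00402). Its drought arrays had 6.36, 6.79, 5.87 and 6.46, all below the 8 knock-down arrays.

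Another 4 members differed from drought in 1 of the knock-downs. In amiNaa10, PIP2-3 was lower than in drought by a log2 change of -1.09 (adjusted p = 0.0179) and PIP2-5 by -0.65 (adjusted p = 0.0103). PIP2-8 was higher by 0.82 (adjusted p = 0.0168) at low signals, which overlapped, with 3.16 to 4.37 on the amiNaa10 arrays and 2.52 to 3.41 on the drought arrays. PIP2-3 lost this call without amiNaa10 replicate 2 or drought replicate 2 or 3 (highest adjusted p = 0.0622). PIP2-5 lost it without drought replicate 2 or 4, where the change of -0.57 or -0.54 was under 1.5-fold. PIP2-8 lost it without amiNaa10 replicate 1 or 3 or drought replicate 3, and with only these 2 groups in the fit (highest adjusted p = 0.0599). In the arrays labelled amiNaa15, PIP1-4 was lower than in drought by -0.70 (adjusted p = 0.00141). Between amiNaa10 and the arrays labelled amiNaa15 themselves, limma called no aquaporin and none of the 27827 genes (0%). Without adjustment of the p, 0 members and 360 genes (1.29%) passed both thresholds. Replicates 1 and 2 of that label had low NAA10, as the amiNaa10 arrays did, so these counts cannot show that the knock-downs were alike. Even NAA10 and NAA15, at -0.90 and 0.85 in this comparison, were not called. Without replicates 1 and 2 no aquaporin was called either, from only 2 arrays of that label.

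The position of drought replicate 3 bears on the lower members. It was the lowest of the 4 drought arrays in 19 of 35 members and in 4 of the 6 called lower, where it was the lowest in 31.8% of all genes. Without it, all 6 members remained lower and both NIP genes remained higher, with changes of -1.23 for TIP1-1, -0.74 for TIP1-2 and -1.17 for TIP2-1 (adjusted p = 0.00228, 0.00509 and 0.00159).

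Genes that act on aquaporins were described from a list of 11, which includes syntaxins that deliver PIPs, ubiquitin ligases and kinases. None was called in either knock-down against the control, and 2 were higher in drought. TSPO, known to direct PIP2-7 to degradation, rose by 1.06 (SE 0.24, adjusted p = 0.00428) at a low signal, with means of 3.42 in drought and 2.36 in the control. UBC32, a ubiquitin-conjugating enzyme of the endoplasmic reticulum, rose by 0.60 (SE 0.11, adjusted p = 0.00101), with means of 10.63 in drought and 10.02 in the control. Of 10 drought marker genes, 4 were higher and 1 was lower in drought, 4 were lower in amiNaa10 and 3 were lower in the arrays labelled amiNaa15. RD29A, a desiccation-induced gene, was among these in every comparison, at -1.98 in amiNaa10, -1.77 in the arrays labelled amiNaa15 and 1.30 in drought. RAB18, RD22, NCED3, P5CS1, COR47 and RD20 also had means below the control in both knock-downs and above it in drought, though not all were called. RAB18 had means of 5.26 in amiNaa10, 5.17 in the arrays labelled amiNaa15, 8.07 in drought and 6.40 in the control. RD26, RD29B and LEA7 went differently. RD26 was the marker lower in drought, with means of 6.27 in drought, 6.12 in amiNaa10, 6.59 in the arrays labelled amiNaa15 and 7.17 in the control. RD29B had means of 4.91 in amiNaa10 and 4.19 in the control and was not called there.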

How the data were processed

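Leaf RNA was measured on 16 Affymetrix AraGene-1_0-st arrays, 4 per group by the labels. The authors applied RMA background correction and quantile normalization, and a custom CDF (version 16) based on TAIR gave 1 value per gene. The deposited values are log2 signals of 27827 genes, and all 16 arrays hold the same values in another order, so that a shift of all genes together cannot be seen. Coordinates are not given because the TAIR release is not stated. Names of all 35 members, and of 56 of 62 other listed genes, were paired with their loci in the RefSeq table (TAIR10.1).

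The 16 arrays were fitted together with the 4 groups as factor levels (12 residual degrees of freedom) in limma 3.58.1 with R 4.3.3. Calls required a Benjamini-Hochberg adjusted p below 0.05 over all genes and more than 1.5-fold change, and the script was tested on simulated data. Signals of different genes were not compared, except for marker sums and low signals. The members and lists were chosen with earlier results of these data known. Array values are given for members called, or with an adjusted p below 0.05, against the control, and the others by range or mean. PIP2-7 and NIP4-2 were given array by array after their values were seen. Alternatives were other thresholds, limma's treat, unmoderated variances, 2 groups only, a replicate block, centring, cyclic loess, array weights, a filter on the 25% of genes with the weakest mean signal, and single arrays left out. The number of arrays limits the precision. Figures were drawn with matplotlib 3.10.9.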

Additional observations from a re-analysis of the deposited data

Results flagged for a closer look

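Single arrays stood far from the other 3 of their group in 9 of 168 groups of 4 examined, where chance gives about 1 in 20, or 8.4. PIP1-1 was low on amiNaa10 replicate 2, at 6.07 against 6.49 to 6.57, and on replicate 1 labelled amiNaa15, at 6.04 against 6.52 to 6.61. TIP4-1 was high on drought replicate 3, at 4.76 against 3.88 to 3.96. NIP4-2 was low on control replicate 3, at 2.49 against 4.92 to 5.21, and high on amiNaa10 replicate 4, at 5.13 against 4.58 to 4.62. NIP4-1 was low on amiNaa10 replicate 3, at 3.59 against 4.03 to 4.10. NIP2-1 was low on amiNaa10 replicate 1, at 2.55 against 2.96 to 3.00, and TIP5-1 high on amiNaa10 replicate 2, at 1.88 against 1.72 to 1.73. SIP2-1 was low on control replicate 2, at 6.36 against 6.62 to 6.64.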

How the results depend on the processing

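No called member changed sign with cyclic loess, array weights or arrays left out. The other alternatives leave the log2 change of a gene as it is, so its sign could not move there. In amiNaa10 against the control, 2 members were called, 4 at an unadjusted p, 0 under limma's treat against 1.5-fold, 1 with unmoderated variances, and 1 to 5 with 1 array left out. The count was 1 without amiNaa10 replicate 1 or 2 or control replicate 2 or 3, and 5 without control replicate 4. For the arrays labelled amiNaa15 the 2 calls became 0 with a 2-fold minimum, 0 under treat, 1 with unmoderated variances, 0 without replicates 1 and 2, 1 without replicates 3 and 4, and 1 to 3 with 1 array left out (1 without replicate 1, 2 or 4 of that label or control replicate 1 or 2). In drought the 8 calls became 0 under treat and 7 to 9 with 1 array left out. Against drought, amiNaa10 had 5 calls in place of 11 with a 2-fold minimum and 2 under treat, and the arrays labelled amiNaa15 had 2 in place of 9 under treat. The 0 calls between the knock-downs stayed 0 throughout. Beyond those stated above, shares of all genes called under these alternatives, or with the replicate block, are not given. These counts therefore cannot be read as particular to the family.

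Without members of mean signal below 4, the TIP median was -0.42 in place of -0.19 in amiNaa10, -0.54 in place of -0.15 in the arrays labelled amiNaa15, and -1.0 in place of -0.37 in drought. In drought the TIP mean was -0.59, and the median was -0.54 to -0.32 with 1 array left out, -0.54 without drought replicate 2. The SIP median in amiNaa10 was -0.11 to -0.0036 with 1 array left out, against -0.06, with -0.0036 without control replicate 4. The NIP median of the arrays labelled amiNaa15 was 0.0935 without replicates 1 and 2, against -0.09, and -0.18 to 0.02 with 1 array left out, above 0 without control replicate 1. With 1 array left out, the NIP median was -0.20 to -0.06 in amiNaa10 and -0.03 to 0.18 in drought, and the TIP median -0.24 to -0.13 in amiNaa10 and -0.23 to -0.08 in the arrays labelled amiNaa15. The PIP2 median in drought was -0.48 to -0.24, and no PIP1 median moved by over 1.5 times. The cause was not tested.

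Same-numbered arrays correlated above 0.1 in 6 of 24 pairs of groups and numbers (-0.20 to 0.32). Arrays of different numbers were not correlated for comparison, so whether the numbers pair the samples was not settled. With the replicate block, the calls were 3 in amiNaa10, 2 in the arrays labelled amiNaa15 and 8 in drought against the control, 11 and 9 against drought, and 0 between the knock-downs. The number of arrays limits the precision, and background signal was not measured here.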
